A study of Homo sapiens with 8 samples.

Results

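RNA levels were compared between HBL-1 cells kept with APRIL and HBL-1 cells kept with EDA. HBL-1 is an established human B-cell lymphoma line, commonly taken to represent the activated B-cell type of diffuse large-cell lymphoma. The comparison took the 4 HBL-1 arrays of the 8 arrays in the study, 2 with APRIL and 2 with EDA, and was made for each of 33616 genes. The members were chosen by cell line and ligand alone, from the labels. Both groups were grown in the same serum-containing medium and were treated for 6 h with ligand at 1 µg/ml, as recombinant purified APRIL or as EDA, which the labels name as the control. The other 4 arrays hold a further lymphoma line, BJAB, under the same treatments. No array of cells kept without a ligand was analysed here, so either ligand could give a difference between the groups. A single line and a single time point limit the model, and nothing in the labels tells if paired arrays of 1 group were separate cultures. Each p-value therefore measures only the spread between these arrays, which may be technical.

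APRIL (TNFSF13) is secreted, belongs to the TNF ligand family and signals through BCMA (TNFRSF17) and through TACI (TNFRSF13B) on late B cells and plasma cells, and it is also held by heparan sulfate chains of syndecans. These receptors recruit TRAF adaptors and activate canonical NF-kB, in which the IKK kinases release RELA and REL dimers from IkB proteins, and the non-canonical branch, in which the kinase NIK (MAP3K14) drives the processing of NFKB2 and its pairing with RELB. EDA, ectodysplasin A, is a family member best known for the development of hair, teeth and sweat glands, and it acts through EDAR and EDA2R. Lymphomas of the activated B-cell type are known for high basal NF-kB activity.

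Values are log2 signals, so a difference of 1 is a 2-fold ratio. The median level of all genes was 5.60 and 5.59 on EDA replicates 1 and 2, and 5.58 and 5.74 on APRIL replicates 1 and 2. APRIL replicate 2 stood apart: over 17575 protein-coding genes its median distance from the EDA mean was 0.36, while that of APRIL replicate 1 was 0.04. Over all genes 63.7% of the differences, APRIL mean minus EDA mean, were positive, and over protein-coding genes 79.0% were. Higher values on each APRIL array than on either EDA array were found for 25.4% of all genes and 34.1% of protein-coding genes, and lower ones for 11.1% and 3.66%. In protein-coding genes sorted by level into 10 groups, the median distance of APRIL replicate 2 was 0.26 in the dimmest group, 0.50 in the seventh and 0.26 in the brightest. The distances of APRIL replicate 1 in those groups were -0.00, 0.14 and 0.03. The median difference of protein-coding genes was 0.20 over both APRIL arrays, against which the medians of gene groups below are read, together with their medians on each APRIL array. This reference was not matched for level, and the gene groups below differ in level. Correlations between arrays over all genes were 0.991 for the EDA arrays, 0.989 for the APRIL arrays and 0.988 to 0.992 between ligands, with genes not being independent of one another.

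**Figure D1:**
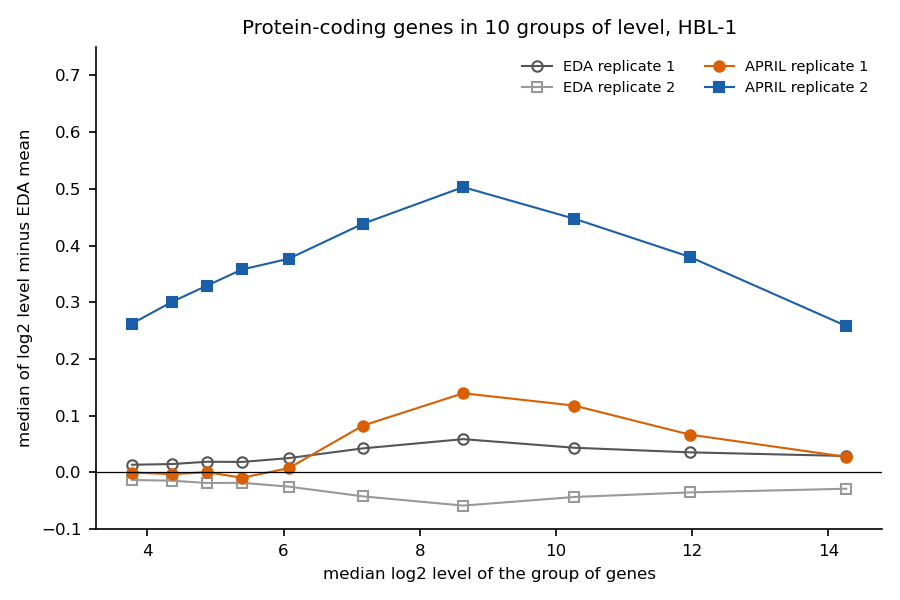
Median distance of each HBL-1 array from the mean of the EDA arrays (y axis, log2) in 10 groups of the 17575 protein-coding genes sorted by level, placed at the median level of each group (x axis, log2). The APRIL replicate 2 points lie between 0.26 and 0.50 in all 10 groups, and those of APRIL replicate 1 between -0.01 and 0.14.

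SEC16B was the gene that differed between APRIL and EDA after adjustment. It encodes a paralog of the scaffold SEC16A, which marks the sites where COPII vesicles leave the endoplasmic reticulum. Its level was 5.25 and 5.18 on the EDA arrays and 7.13 and 7.35 on the APRIL arrays. Both APRIL arrays lay far above both EDA arrays, and the EDA arrays were close to each other. SEC16B thus rose by 2.02 with APRIL (95% confidence interval 1.58 to 2.47, SE 0.20, with n = 2 arrays in each group; limma, adjusted p = 0.0491). The EDA levels lay close to the median EDA level of 612 negative-control features, 5.28 (range 2.46 to 10.61), so they were not shown to be above background, and no fold ratio is given. It was 1 of 33616 genes with an adjusted p under 0.05, a share of 0.00297%, and 2967 genes had an unadjusted p under 0.05. The difference was 1.91 to 2.14 over the alternatives tried, but the adjusted p ran from 0.0227 to 0.465. The call was lost with array weights (adjusted p = 0.115), with the replicate number as a block (0.209), in the fit of the 4 HBL-1 arrays alone (0.465) and in each fit that left out 1 HBL-1 array (0.172 to 0.314). A filter on dim genes removed SEC16B from the test.

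Differences of this size occurred in other deposited features as well. SEC16B ranked 6 by absolute difference among all genes, and 315 genes differed by at least 1 in either direction, 255 with a positive and 60 with a negative difference. Among the control features, which their identifiers mark as negative controls, differences ran from -1.93 to 4.0, and 15.4% had an unadjusted p under 0.05. The one with the smallest p was at 7.07 and 7.06 with EDA and at 8.79 and 9.38 with APRIL, a difference of 2.02. Further genes named below lay under the control median of 5.28 with EDA, with APRIL or with both. Among them were BCHE, ADAM19, RAPGEF5, CCL22, CHAC1, CD86 and EDAR, which were not shown to be above background there. When every deposited feature was tested together, an alternative chosen after the data were seen, SEC16B ranked 2 of 138745 by p-value with an adjusted p of 0.293.

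The RefSeq promoter of SEC16B, 300 bases that hold the annotated start (chr1:177984235-177984534, minus strand, GRCh38.p14), is shown because it belongs to the gene that passed. It was searched on both strands for GGNNNTTCC, a form of the NF-kB site with free central bases, and held no match. The absence says only that these letters are not in this window.
SEC16B: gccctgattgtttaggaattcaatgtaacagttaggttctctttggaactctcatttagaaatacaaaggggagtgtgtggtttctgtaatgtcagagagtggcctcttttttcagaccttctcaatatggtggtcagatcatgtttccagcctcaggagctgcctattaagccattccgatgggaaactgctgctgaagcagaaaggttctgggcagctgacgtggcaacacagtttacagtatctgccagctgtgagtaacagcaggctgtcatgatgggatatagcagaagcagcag

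The list of COPII coat and exit-site genes, which includes SEC16B itself, had a median near the background. Of 24 measured members, 22 had a positive difference (91.7%, against 79.0% of protein-coding genes). Non-overlapping higher APRIL arrays were found for 6, SEC16B among them (25%, against 34.1% of protein-coding genes). The list median was 0.15, against 0.20 for protein-coding genes, with -0.02 on APRIL replicate 1 and 0.30 on replicate 2. SEC24C, a cargo-binding coat subunit, was at 10.87 and 10.68 with EDA and at 11.36 and 11.47 with APRIL (difference 0.64, SE 0.20, limma adjusted p = 0.473). The tethering subunit TRAPPC3 had a difference of 0.53 and the coat subunit SEC13 one of 0.47, and neither passed. For SEC13 it was 0.09 on APRIL replicate 1 and 0.84 on replicate 2. SEC16A itself had a difference of 0.16.

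Further protein-coding genes with small p-values and positive differences belonged to varied processes, and each had a limma adjusted p of 0.373. SUOX, the mitochondrial sulfite oxidase, was at 6.65 and 5.98 with EDA and at 7.68 and 8.55 with APRIL (difference 1.81, SE 0.32). ZDHHC23, a palmitoyltransferase, was at 7.94 and 8.02 with EDA and at 9.39 and 9.58 with APRIL (1.50, SE 0.24). RGL1, an exchange factor for Ral GTPases, was at 8.06 and 8.12 with EDA and at 9.29 and 9.68 with APRIL (1.39, SE 0.22). In each of these 3 genes both APRIL arrays were the higher ones and the groups did not overlap, as the naming rule required. FYN, a Src-family kinase of lymphocytes, was at 6.08 and 6.35 with EDA and at 7.58 and 7.40 with APRIL (1.28, SE 0.22). DGKG, a diacylglycerol kinase, was at 5.96 and 6.35 with EDA and at 7.62 and 7.37 with APRIL (1.33, SE 0.24). For FYN and DGKG the value of APRIL replicate 1 was the highest, although APRIL replicate 2 stood above it over most protein-coding genes. The activin receptor ACVR2B had a difference of 1.57, the ciliary protein gene CBY1 of 1.31 and the read-through transcript CCDC169-SOHLH2 of 1.44. DET1, a subunit of ubiquitin ligases, had a difference of 1.43 on the transcript cluster used here and 0.32 on its other cluster. RAPGEF5, an exchange factor for Rap GTPases, was at 4.19 and 3.74 with EDA and at 5.34 and 5.67 with APRIL, with a level of 12.88 in BJAB under EDA.

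**Figure D2:**
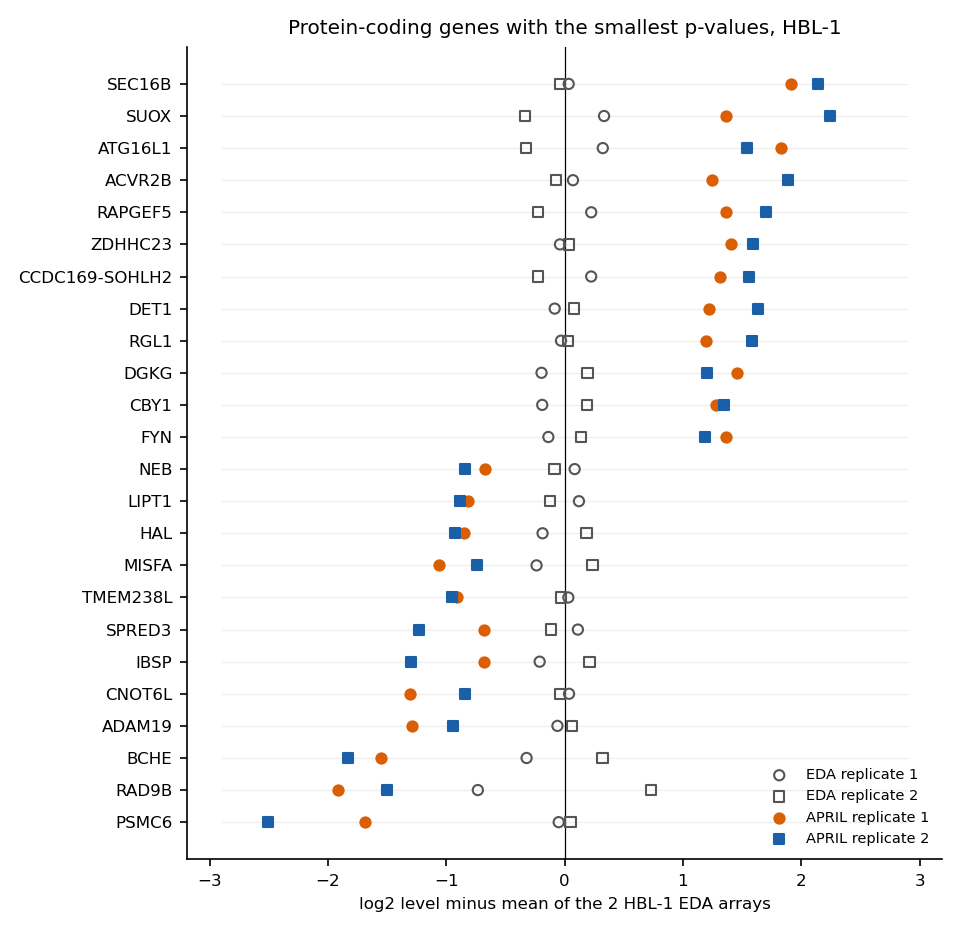
Distance of each HBL-1 array from the mean of the EDA arrays (x axis, log2) for the 12 protein-coding genes with the smallest p in each direction among genes whose groups did not overlap (y axis). Open symbols are EDA arrays and filled symbols APRIL arrays. SEC16B, at the top, has its EDA arrays close together and its APRIL arrays about 2.02 higher on average, and PSMC6, at the bottom, lies at -2.10.

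Negative differences were rarer, and none passed. With an unadjusted p under 0.05, 6.66% of all genes had a positive and 2.17% a negative difference, and among protein-coding genes these shares were 9.75% and 0.467%. PSMC6, an ATPase subunit of the proteasome cap, was at 7.91 and 8.01 with EDA and at 6.27 and 5.45 with APRIL (difference -2.10, SE 0.53, limma adjusted p = 0.421). It was the most negative difference of all genes, and a second cluster of the gene had a difference of 0.33. BCHE, the enzyme butyrylcholinesterase, was at 5.88 and 6.52 with EDA and at 4.65 and 4.37 with APRIL (-1.69, SE 0.25, adjusted p = 0.373). RAD9B, a subunit of a checkpoint clamp, was at 5.40 and 6.86 with EDA and at 4.22 and 4.63 with APRIL (-1.70, SE 0.42), with its EDA arrays far apart. ADAM19, a membrane metalloproteinase, was at 5.54 and 5.66 with EDA and at 4.31 and 4.66 with APRIL (-1.11, SE 0.22). With APRIL, BCHE, RAD9B and ADAM19 lay below the negative-control median of 5.28, where levels were not shown to be above background. CNOT6L, a deadenylase that shortens mRNA tails, was at 8.94 and 8.86 with EDA and at 7.60 and 8.06 with APRIL (-1.07, SE 0.26). The remaining genes of the rule were HAL, histidine ammonia-lyase (-0.89), the lipoyltransferase LIPT1 (-0.85), the MAPK inhibitor SPRED3 (-0.96), the bone matrix protein gene IBSP (-0.99), the muscle protein gene NEB (-0.76), MISFA (-0.90) and TMEM238L (-0.93).

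The ligands and receptors themselves did not pass. TNFRSF17, which encodes BCMA, was at 11.72 and 10.93 with EDA and at 11.32 and 11.94 with APRIL, and the groups overlapped. TNFRSF13B, which encodes TACI, was at 10.48 and 9.82 with EDA and at 9.99 and 10.08 with APRIL, and both APRIL arrays lay between the EDA arrays. EDA2R was at 5.78 and 4.99 with EDA and at 5.80 and 6.42 with APRIL, and EDAR at 4.37 and 4.13 with EDA and at 4.74 on both APRIL arrays. Their differences were 0.72 and 0.49, each with a limma adjusted p of 0.540. Among all 13 measured ligands, receptors, syndecans and adaptors, 10 had a positive difference (76.9%), close to the share of protein-coding genes. EDA itself, at 4.20 and 4.06 with EDA and at 3.95 and 3.90 with APRIL, had both APRIL arrays below both EDA arrays. So did the syndecan SDC4 (-0.25). These were 2 of the 13 (15.4%, against 3.66% of protein-coding genes). The remaining differences were 0.30 for TNFSF13, 0.30 for the related ligand TNFSF13B, 0.21 for SDC1, 0.14 for SDC2 and 0.23 for SDC3. Those of the APRIL-processing protease FURIN and the EDAR adaptor EDARADD were 0.24 and 0.06. All of these remaining differences had limma adjusted p-values of 0.737 to 0.970. On the other cluster of TNFSF13B the difference was -0.18.

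Components of the NF-kB pathway had a median difference above that of all protein-coding genes, and none passed. On each APRIL array their median was near that of protein-coding genes of similar level. Of 33 measured components, 26 had a positive difference (78.8%, against 79.0% of protein-coding genes) and 14 had both APRIL arrays above both EDA arrays (42.4%, against 34.1%). An unadjusted p under 0.05 with a positive difference was found for 5 of them (15.2%, against 9.75%). Their median difference was 0.32, and it was 0.11 with APRIL replicate 1 and 0.46 with replicate 2, so most of it came from replicate 2. The median EDA level of the components was 10.44. In the level group of protein-coding genes with a median of 10.27, the median distances were 0.12 on APRIL replicate 1 and 0.45 on replicate 2. The 3 components with the smallest p-values in the positive direction belong to the non-canonical branch. MAP3K14, the kinase NIK, was at 9.34 and 9.43 with EDA and at 10.25 and 10.80 with APRIL (difference 1.14, SE 0.25, limma adjusted p = 0.391). RELB was at 12.24 and 12.14 with EDA and at 13.05 and 13.27 with APRIL (0.97, SE 0.21, adjusted p = 0.391). NFKB2, the precursor of p52, was at 7.85 and 8.14 with EDA and at 8.63 and 8.72 with APRIL (0.68, SE 0.21, adjusted p = 0.471). In all 3 genes the groups did not overlap, and APRIL replicate 1 alone lay 0.87, 0.86 and 0.64 above the EDA mean. After cyclic loess between arrays the differences were 0.96, 0.80 and 0.51. The non-canonical kinase CHUK had a difference of 0.33 with overlapping groups.

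Among canonical components the values were mixed. IKBKB, the catalytic IKK-beta subunit, was at 9.72 and 9.68 with EDA and at 10.80 and 10.21 with APRIL (difference 0.80, SE 0.26, limma adjusted p = 0.481). NFKBIA, the inhibitor IkB-alpha, was at 11.46 and 11.10 with EDA and at 11.76 and 11.89 with APRIL (0.54, SE 0.22). The subunits RELA (0.30) and REL (0.28) had both APRIL arrays above both EDA arrays, whereas NFKB1 had a difference of -0.28 and overlapped. The deubiquitinase TNFAIP3, a feedback inhibitor known as A20, was at 12.79 and 13.08 with EDA and at 12.85 and 13.77 with APRIL, and overlapped. Both APRIL arrays lay below both EDA arrays for 3 of 33 components (9.09%, against 3.66% of protein-coding genes). They were the ubiquitin ligases BIRC2 (-0.47) and BIRC3 (-0.16) and the adaptor TRAF5 (-0.41), named because the count was short. BIRC2 and BIRC3 together with TRAF3 hold NIK down in resting cells. BIRC2 was at 12.20 and 12.42 with EDA and at 11.95 and 11.74 with APRIL (SE 0.20, limma adjusted p = 0.557). TRAF3 overlapped, at 9.39 and 8.35 with EDA and 9.54 and 9.28 with APRIL.

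Genes that NF-kB is known to induce had a larger median difference than the components. Of 32 measured targets, 29 had a positive difference (90.6%), 16 had both APRIL arrays above both EDA arrays (50%, against 34.1% of protein-coding genes) and 10 had an unadjusted p under 0.05, all positive (31.2%, against 9.75%). The median difference was 0.40, with 0.18 on APRIL replicate 1 and 0.54 on replicate 2. The median EDA level of the targets was 8.13. In the level group of protein-coding genes with a median of 8.64, the median distances were 0.14 and 0.50 on these arrays. ICAM1, the adhesion ligand of the integrin LFA-1, was at 8.46 and 8.21 with EDA and at 9.23 and 9.46 with APRIL (difference 1.01, SE 0.22, limma adjusted p = 0.391). FAS, a death receptor, was at 7.93 and 8.14 with EDA and at 8.74 and 9.0 with APRIL (0.83, SE 0.23, adjusted p = 0.435). The chemokine CCL22 was at 4.82 and 4.13 with EDA and at 5.08 and 5.79 with APRIL (0.96, SE 0.34). None of these groups overlapped, and for ICAM1 and FAS each APRIL array lay at least 0.70 above the EDA mean. The hyaluronan receptor CD44 had a difference of 0.74, of which APRIL replicate 1 showed 0.28 and replicate 2 showed 1.19. The platelet and leukocyte protein PLEK (0.65), the stress sensor GADD45B (0.55) and the costimulatory receptor CD40 (0.51) also had groups that did not overlap. Other targets had smaller values, among them TNF (0.08), IL6 (0.12), JUNB (0.12), IER3 (0.18) and CD69 (-0.17), which are named after their values were seen and whose groups overlapped.

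**Figure D3:**
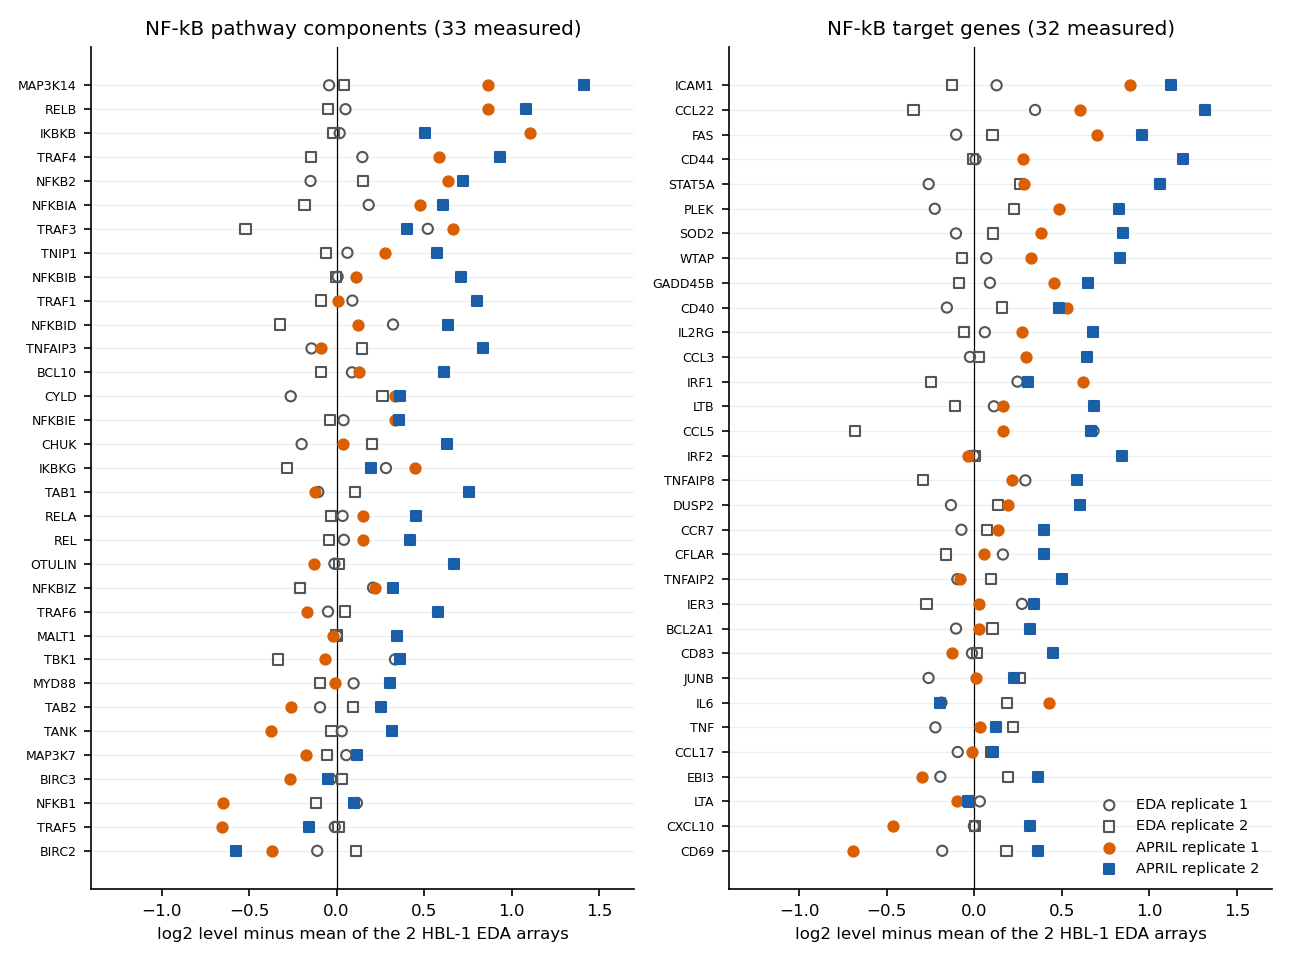
Distance of each HBL-1 array from the mean of the EDA arrays (x axis, log2) for the 33 measured NF-kB pathway components and 32 measured NF-kB targets, ordered by mean difference (y axis). APRIL replicate 1 lies to the right of both EDA arrays for MAP3K14, RELB, NFKB2, ICAM1 and FAS, while lower in each panel it stands among or below the EDA arrays.

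Promoters of members were searched for GGNNNTTCC on both strands, and a match on both strands at the same position is given as 1 site. The motif stood in 13 of 30 RefSeq promoters of pathway components (43.3%), in 8 of 25 of targets (32%) and in 5498 of 27305 promoters of the whole table (20.1%). The promoters of MAP3K14 and NFKB2 held none. Those of ICAM1 (chr19:10270870-10271169, plus strand), FAS (chr10:88990548-88990847, plus strand) and NFKBIA (chr14:35404700-35404999, minus strand) held 1, 1 and 2 sites, and are shown as GRCh38.p14 sequences of members with non-overlapping groups, with the motif in capitals.
ICAM1: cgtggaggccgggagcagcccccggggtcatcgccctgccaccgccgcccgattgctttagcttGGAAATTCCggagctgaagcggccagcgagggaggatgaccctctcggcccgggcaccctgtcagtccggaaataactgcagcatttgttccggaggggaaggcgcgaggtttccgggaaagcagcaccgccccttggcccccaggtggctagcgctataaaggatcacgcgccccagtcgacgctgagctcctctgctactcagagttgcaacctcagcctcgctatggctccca
FAS: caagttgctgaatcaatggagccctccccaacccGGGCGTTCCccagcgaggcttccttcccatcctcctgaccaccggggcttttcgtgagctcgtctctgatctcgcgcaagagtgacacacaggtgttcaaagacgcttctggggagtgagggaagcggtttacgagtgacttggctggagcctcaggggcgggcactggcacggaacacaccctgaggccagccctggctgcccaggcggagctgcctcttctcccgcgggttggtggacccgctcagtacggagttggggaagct
NFKBIA: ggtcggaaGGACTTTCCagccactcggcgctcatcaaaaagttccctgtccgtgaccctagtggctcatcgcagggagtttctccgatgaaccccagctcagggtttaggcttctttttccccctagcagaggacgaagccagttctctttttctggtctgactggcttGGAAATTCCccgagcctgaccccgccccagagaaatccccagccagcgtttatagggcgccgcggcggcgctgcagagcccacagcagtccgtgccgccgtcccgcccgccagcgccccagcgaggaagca
The capitals of ICAM1 and the second run of capitals in NFKBIA read the same on both strands within the motif's fixed letters. A match is a description of these letters and not a measured binding site.

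Death receptors and caspases gave mixed values, and none passed. CASP10, an initiator caspase, was at 7.29 and 7.19 with EDA and at 8.02 and 8.31 with APRIL (difference 0.92, SE 0.22, limma adjusted p = 0.411). The TRAIL receptors TNFRSF10B, at 7.29 and 7.04 with EDA and at 7.62 and 8.15 with APRIL, and TNFRSF10A, at 9.24 and 8.78 with EDA and at 9.58 and 9.78 with APRIL, had differences of 0.72 and 0.67, and in both genes the groups did not overlap. The related caspase CASP8 (0.03) and the adaptor FADD (-0.02) were close to 0. Of 27 measured apoptosis regulators, 25 had a positive difference (92.6%), 12 had both APRIL arrays above both EDA arrays (44.4%, against 34.1% of protein-coding genes) and the median was 0.27, with 0.13 on APRIL replicate 1 and 0.46 on replicate 2. BMF, a pro-apoptotic BH3-only protein, had a difference of 0.57, and the survival factors MCL1 (0.23), BCL2 (0.27) and BCL2A1 (0.17) had smaller ones. Of 23 measured p53 targets, 22 had a positive difference and 10 had non-overlapping higher APRIL arrays (43.5%, against 34.1% of protein-coding genes). The list median was 0.35, with 0.17 on APRIL replicate 1 and 0.59 on replicate 2. AEN, an apoptosis-enhancing nuclease, was at 8.01 and 7.53 with EDA and at 8.52 and 8.61 with APRIL (0.79, SE 0.24), and FDXR, a ferredoxin reductase, had a difference of 0.71. FAS and TNFRSF10B stand in both lists, and MDM2, the p53 feedback ligase, had a difference of 0.05.

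Antigen presentation was followed because the series is titled for immunogenicity. Of 20 measured class I genes, 19 had a positive difference and 13 had both APRIL arrays above both EDA arrays (65%, against 34.1% of protein-coding genes), and with APRIL replicate 1 alone 14 lay above both EDA arrays (70%, against 38.7% of protein-coding genes). The differences were small: their median was 0.27, with 0.12 on APRIL replicate 1 and 0.45 on replicate 2. ERAP2, which trims peptides for class I, was at 5.99 and 5.64 with EDA and at 7.66 and 6.94 with APRIL (1.49, SE 0.27, limma adjusted p = 0.373). NLRC5, the class I transactivator, was at 8.39 and 8.40 with EDA and at 9.09 and 9.01 with APRIL (0.65, SE 0.20, adjusted p = 0.473). HLA-B had a difference of 0.77 and HLA-C of 0.58, and whether probes tell these related genes apart was not tested. Of 18 measured class II genes, 17 had a positive difference and 7 had non-overlapping higher APRIL arrays (38.9%), near the 34.1% of protein-coding genes. Their median of 0.20 equalled that of protein-coding genes, and was 0.10 on APRIL replicate 1 and 0.48 on replicate 2. HLA-DQB1 was at 5.98 and 6.06 with EDA and at 6.74 and 7.50 with APRIL (1.10, SE 0.26, adjusted p = 0.409). LGMN, a lysosomal protease, had a difference of 0.78, and HLA-DRA, at 10.49 and 9.69 with EDA and at 10.22 and 10.85 with APRIL, overlapped.

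Values of costimulatory genes differed between the APRIL arrays. The costimulation and checkpoint list had 30 measured genes, of which 23 were positive over both arrays, but 13 were with APRIL replicate 1 alone, and 7 had non-overlapping higher APRIL arrays (23.3%, against 34.1% of protein-coding genes). The median was 0.34, with -0.02 on APRIL replicate 1 and 0.52 on replicate 2. TNFRSF14, the herpesvirus entry mediator that binds BTLA, was at 8.51 and 8.26 with EDA and at 9.10 and 9.35 with APRIL (0.84, SE 0.21, limma adjusted p = 0.421). CD86, a ligand of CD28, was at 5.20 and 4.98 with EDA and at 6.35 and 5.72 with APRIL (0.94, SE 0.26). Groups of both genes did not overlap, and CD86 was at 13.40 in BJAB under EDA. PVR, a ligand of TIGIT, and the lymphocyte receptor SLAMF7 each had a difference of 0.88. CD80, the other ligand of CD28, had the largest difference of the list, 1.07, but its EDA arrays were at 7.31 and 5.04 and overlapped with APRIL, and it was picked out after its values were seen. Of 27 measured genes linked to IL-10 and regulatory B cells, 23 had a positive difference. Non-overlapping higher APRIL arrays were found for 13 (48.1%, against 34.1% of protein-coding genes). The count was the same with APRIL replicate 1 alone, against 38.7% of protein-coding genes. The list median was 0.23, with 0.12 on APRIL replicate 1 and 0.40 on replicate 2. IL10 itself was at 13.87 and 13.83 with EDA and at 14.01 and 14.14 with APRIL, a small difference of 0.22 in groups that did not overlap. The ectoenzyme CD38 (0.66), the AP-1 family member BATF (0.66), the lectin LGALS1 (0.58) and the receptor AHR (0.64) had larger ones, and none passed. AHR overlapped and had 0.16 on APRIL replicate 1 and 1.12 on replicate 2, and LGALS1 had 0.25 and 0.90.

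Autophagy genes held several of the larger differences. Of 28 measured members, 27 had a positive difference (96.4%), 13 had both APRIL arrays above both EDA arrays (46.4%, against 34.1% of protein-coding genes) and 8 had an unadjusted p under 0.05, all positive (28.6%, against 9.75%). Their median was 0.31, with 0.12 on APRIL replicate 1 and 0.51 on replicate 2. The median EDA level of the list was 10.01. In the level group of protein-coding genes with a median of 10.27, the median distances were 0.12 and 0.45 on these arrays. MAP1LC3B, which coats autophagosomes once lipidated, was at 11.10 and 10.89 with EDA and at 11.67 and 11.86 with APRIL (0.77, SE 0.20, limma adjusted p = 0.432). ATG2B, a lipid-transfer protein, was at 7.48 and 7.71 with EDA and at 8.53 and 8.41 with APRIL (0.87, SE 0.25), and the receptor SQSTM1, known as p62, was at 10.03 and 10.29 with EDA and at 10.73 and 10.91 with APRIL (0.66, SE 0.23). None of these groups overlapped. ATG16L1 had a difference of 1.69 on its brightest cluster, which has no chromosome in the annotation, and 0.34 on the cluster of chromosome 2. The E2-like ATG10 was at 5.17 and 6.34 with EDA and at 6.86 and 7.81 with APRIL (1.58, SE 0.43), with its EDA arrays far apart.

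Genes of the amino acid and integrated stress response had the highest share of non-overlapping higher genes among the 33 lists. Of 21 measured members, 19 had a positive difference and 14 had non-overlapping higher APRIL arrays (66.7%, against 34.1% of protein-coding genes). With APRIL replicate 1 alone the share was 71.4%, against 38.7% of protein-coding genes. The median was 0.29, with 0.10 on APRIL replicate 1 and 0.34 on replicate 2. The median EDA level of the list was 9.82. In the level group of protein-coding genes with a median of 10.27, the median distances were 0.12 and 0.45 on these arrays. The shares above were not compared at matched level. CHAC1, a glutathione-degrading enzyme, was at 5.10 and 4.16 with EDA and at 5.61 and 6.26 with APRIL (1.30, SE 0.36, limma adjusted p = 0.435). The cystine transporter SLC7A11 (0.98), the serine synthesis enzyme PHGDH (0.80) and the cystathionine lyase CTH (0.80) also had non-overlapping groups. CTH had 0.24 on APRIL replicate 1 and 1.36 on replicate 2, whereas SLC7A11 had 1.45 on replicate 1 and 0.52 on replicate 2.

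Secretory, palmitoylation, exchange-factor and proteasome lists had medians of 0.10 to 0.25. Of 20 measured genes of the unfolded protein response, 4 had non-overlapping higher APRIL arrays (20%, against 34.1% of protein-coding genes). The list median was 0.14, with -0.06 on APRIL replicate 1 and 0.37 on replicate 2. The Golgi structure and COPI list (23 measured) had a median of 0.17 (0.01 on APRIL replicate 1 and 0.25 on replicate 2), with GOLGA2, a cis-Golgi matrix protein, at 0.62. The 23 measured palmitoyltransferases had a median of 0.25, with 0.09 on APRIL replicate 1 and 0.35 on replicate 2. The median EDA level of this list was 9.24. In the level groups of protein-coding genes with medians of 8.64 and 10.27, the median distances were 0.14 and 0.12 on APRIL replicate 1. On replicate 2 they were 0.50 and 0.45. Of the palmitoyltransferases, 12 had non-overlapping higher APRIL arrays (52.2%, against 34.1% of protein-coding genes). Of these, ZDHHC11 was at 6.97 and 6.83 with EDA and at 7.92 and 7.87 with APRIL, a difference of 1.00 on the cluster used and -0.27 on its other cluster. The 16 measured Rap and Ral exchange factors had a median of 0.22, with -0.02 on APRIL replicate 1 and 0.43 on replicate 2. RAPGEF2 had a difference of 0.91 on the cluster used and 0.13 on its other cluster. The palmitoyltransferase list includes ZDHHC23 and the exchange-factor list RAPGEF5, both named above for small p-values. Since the lists were chosen with earlier results of these data known, their shares and medians are not independent of such genes. The proteasome list, of 26, had a median of 0.10, with -0.04 on APRIL replicate 1 and 0.25 on replicate 2.

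Lists of B-cell identity and activation had medians of 0.10 to 0.31. The activated B-cell type markers (19 measured) had 11 members with non-overlapping higher APRIL arrays (57.9%, against 34.1% of protein-coding genes). Their median was 0.21, with 0.11 on APRIL replicate 1 and 0.31 on replicate 2. ETV6, a transcriptional repressor, had a difference of 1.00 (SE 0.41), and RAB29, a small GTPase, one of 0.72. The 18 measured germinal-centre-type markers had a median of 0.31 (0.10 on APRIL replicate 1 and 0.55 on replicate 2), with SSBP2 at 1.17, P2RY8, a migration-inhibiting receptor, at 0.75 and the transcription cofactor LMO2 at 0.56. For the 17 measured plasma cell genes the median was 0.21 (0.03 on APRIL replicate 1 and 0.41 on replicate 2), with JCHAIN, the joining chain, at 6.54 and 7.18 with EDA and at 7.76 and 7.82 with APRIL, and the elongation factor ELL2 at 0.55. B-cell receptor signalling (21 measured) had a median of 0.10 (0.03 on APRIL replicate 1 and 0.20 on replicate 2), with the kinases SYK at 0.68 and PIK3CD at 0.62. Early response and MAPK feedback genes (25 measured) had a median of 0.14 (0.01 on APRIL replicate 1 and 0.31 on replicate 2), with the MAPK inhibitor SPRED2 at 0.80 and the immediate early gene IER2 at 0.69. Chemokine receptors and adhesion genes (21 measured) had a median of 0.29 (0.13 on APRIL replicate 1 and 0.48 on replicate 2), with CCR10, a receptor of plasma cells, at 0.83. Cytokines and chemokines (28 measured) had a median of 0.19, with 0.01 on APRIL replicate 1 and 0.32 on replicate 2. IL18 had a difference of 0.73 and CSF1 one of 0.71, of which APRIL replicate 1 showed 0.23 for CSF1 and replicate 2 showed 1.19. Interferon-stimulated genes, 26 measured, had 0 members with an unadjusted p under 0.05 by limma and none with an adjusted one, and a median of 0.14 (-0.04 on APRIL replicate 1 and 0.21 on replicate 2). The cell cycle (0.13), glycolysis and hypoxia (0.12), cholesterol synthesis (0.21) and MYC and ribosome biogenesis (0.21) lists had medians of at most 0.21, against 0.20 for protein-coding genes. On APRIL replicate 1 these 4 medians ran from -0.01 to 0.11, and on replicate 2 from 0.24 to 0.38.

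**Figure D4:**
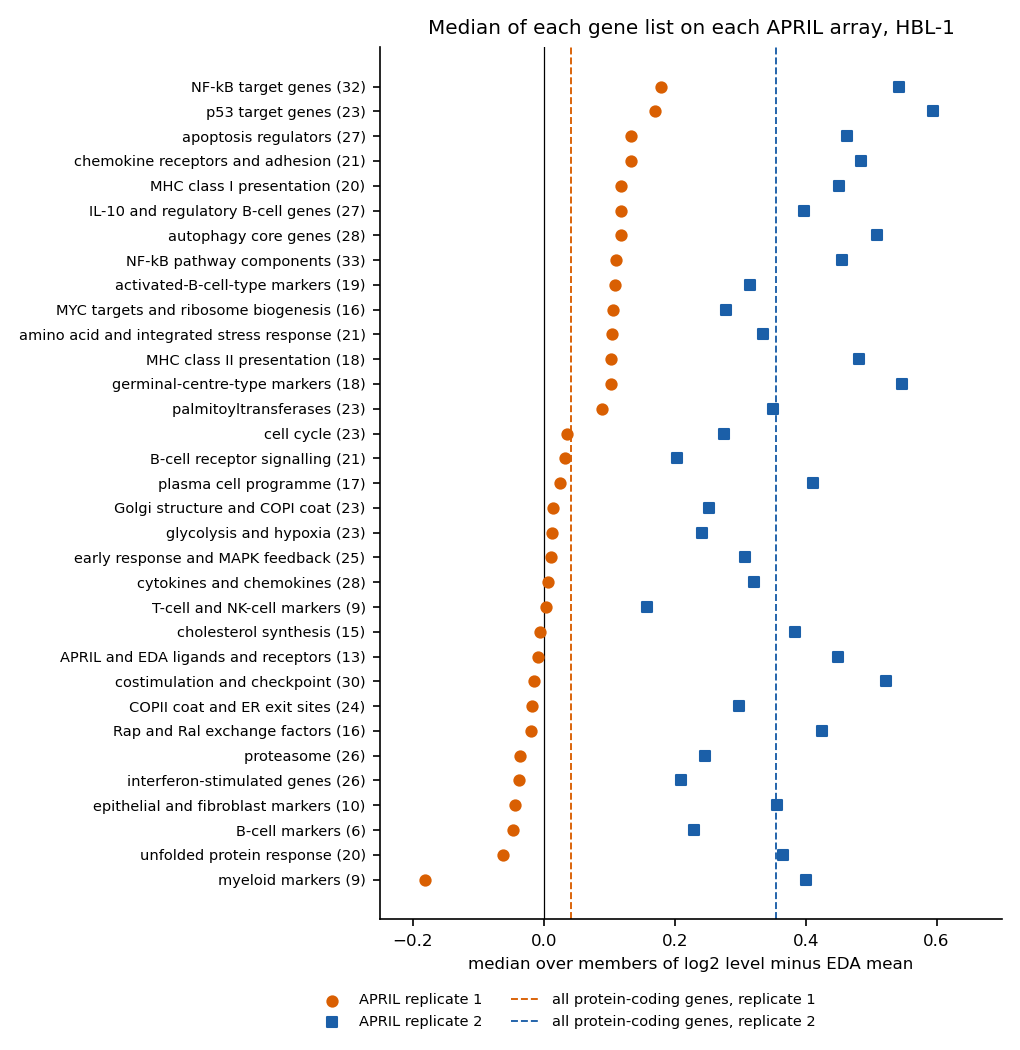
Median over the measured members of each gene list (y axis, number measured in parentheses) of the distance from the EDA mean (x axis, log2), for APRIL replicate 1 and replicate 2 separately, with dashed lines at the medians of all protein-coding genes, 0.04 and 0.36. NF-kB targets have the highest median on APRIL replicate 1, 0.18, and p53 targets the highest on replicate 2, 0.59.

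Markers of cell types were read as a check of the labels. The 6 measured B-cell markers ran from 9.79 to 16.94 on EDA replicate 1, and none had non-overlapping groups. CD79A, a chain of the antigen receptor, was at 15.96 and 15.80 with EDA and at 15.87 and 16.08 with APRIL, and MS4A1, which encodes CD20, at 9.79 and 10.18 with EDA and at 10.01 and 10.36 with APRIL. T-cell and NK-cell markers had a median of 4.02 and 4.29 on the EDA arrays and of 4.48 and 4.74 on the APRIL arrays, with the highest member between 6.50 and 7.09. Myeloid markers had medians of 5.22 and 4.98 with EDA and of 5.14 and 5.64 with APRIL. Epithelial and fibroblast markers had medians of 5.82 and 5.88 with EDA and of 5.93 and 5.95 with APRIL, with COL1A2 the highest, at 9.88 and 9.28 with EDA and 9.57 and 10.82 with APRIL. Of these markers of other lineages, CSF1R (0.66) and KRT19 (0.56) had an unadjusted p under 0.05.

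Genes abundant in BJAB were read as a set of their own, and their part in the results was not tested. For 88 genes with a level of at least 10 in BJAB and at most 6 in HBL-1 under EDA, the median distance from the HBL-1 EDA mean was 0.12 on APRIL replicate 1 and 0.50 on replicate 2, and 66 had a positive difference (75%). For 7059 protein-coding genes that were low in both lines these medians were lower, at -0.00 and 0.32, while 5192 had a positive difference, a similar share (73.6%). RAPGEF5 and CD86, named above, had levels of 12.88 and 13.40 in BJAB under EDA. FYN and JCHAIN, at 12.39 and 16.57 there, lay above 6 in HBL-1 under EDA and were outside the set. These genes were picked out after their values were seen.

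Non-coding classes did not share the shift of protein-coding genes. The median difference was 0.01 for 3051 long non-coding RNAs, -0.05 for 1470 microRNA genes, 0.04 for 220 small nucleolar RNAs, 0.06 for 1227 U6 pseudogenes, -0.11 for 667 7SL pseudogenes and -0.11 for 257 immunoglobulin variable segments. On APRIL replicate 2 alone the median was 0.00 for long non-coding RNAs and -0.16 for 7SL pseudogenes, while it was 0.36 for protein-coding genes. TRAJ30, a joining segment of the T-cell receptor alpha locus, was at 5.97 and 5.76 with EDA and at 7.53 and 7.44 with APRIL (difference 1.62, SE 0.21), and had the smallest adjusted p after SEC16B, 0.228 by limma. The pseudogene KLF3P1 had a difference of 1.65. The feature named U7 had one of 1.31 on its brightest cluster, while its other clusters ran from -0.53 to 0.70. On the negative side stood RNU6-527P (-1.39), RNU6-1337P (-1.10) and RSU1P3 (-1.12). FAS-AS1, picked out after its values were seen, had the largest difference of all genes, 3.17 (SE 0.59, limma adjusted p = 0.391). It was at 5.75 and 3.91 with EDA and at 8.29 and 7.71 with APRIL, and its other 2 clusters had differences of -0.12 and -0.21. The annotation places one of them on chromosome 13, away from the gene's chromosome 10.

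The same contrast in BJAB, which shares no array with HBL-1, was set beside it. SEC16B was at 4.43 and 4.38 with EDA and at 4.66 and 4.57 with APRIL in BJAB, a difference of 0.21. The HBL-1 difference was 1.81 higher than the BJAB difference (SE 0.28, 95% confidence interval 1.18 to 2.44), with a limma adjusted p of 0.843. SEC16B was chosen on these same HBL-1 values, and the interval does not allow for that choice. No gene of 33616 (0.0%) passed this test of the difference by limma, while 1894 had an unadjusted p under 0.05. MAP3K14 (0.14), RELB (-0.03), NFKB2 (-0.06), ICAM1 (0.17) and FAS (0.20) had differences near 0 in BJAB. These genes were likewise named for their HBL-1 values. For RELB the HBL-1 difference was 1.00 higher than the BJAB difference (SE 0.30, limma adjusted p = 0.843). BIRC2 was at 5.09 and 5.12 with EDA and at 5.70 and 5.78 with APRIL in BJAB, a difference of 0.64, opposite in sign to HBL-1. The BJAB levels of SEC16B and BIRC2 lay below or near 5.28, the negative-control median on the HBL-1 EDA arrays. Neither gene was shown to be above background in BJAB. TRAJ30 (1.01) and U7 (1.76) had positive differences in both lines, and NEB had -0.95 in BJAB beside -0.76 in HBL-1. The level of TNFRSF17 under EDA was 6.31 in BJAB, and that of TNFRSF13B 5.02.

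**Figure D5:**
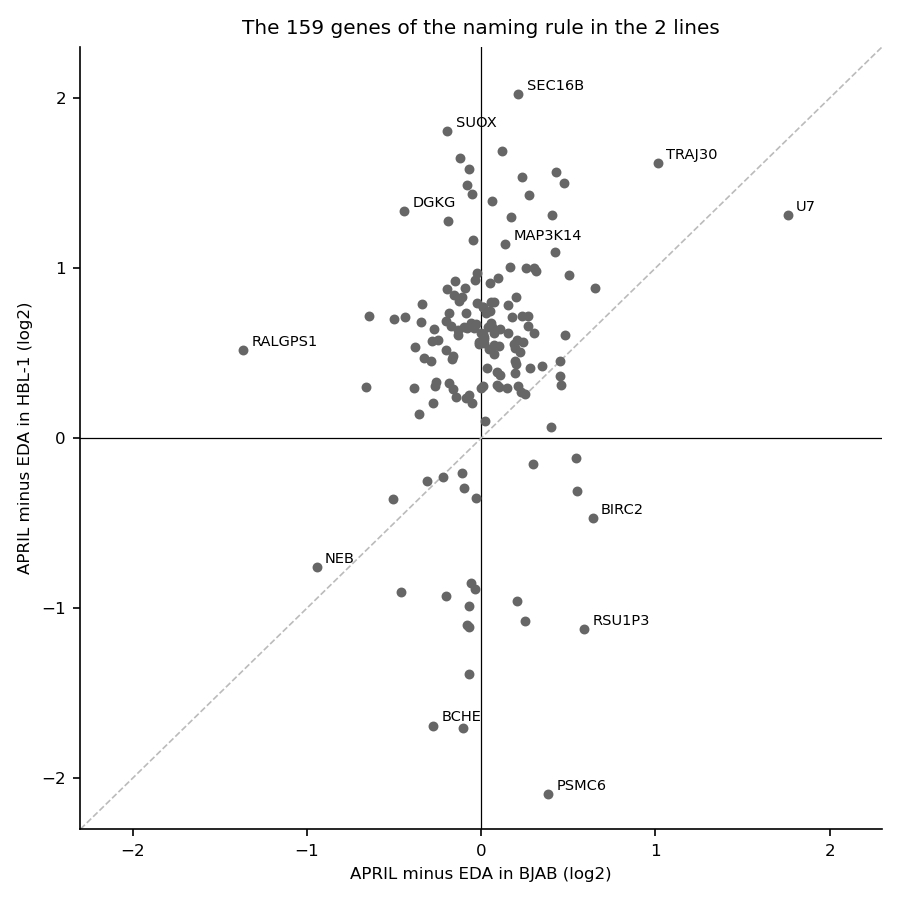
APRIL minus EDA in HBL-1 (y axis, log2) against the same difference in BJAB (x axis, log2) for the 159 genes of the naming rule, 1 point per gene, with a dashed line where both are equal. Since the genes were chosen on the HBL-1 values, their spread along the y axis is fixed by the choice, and only U7 and TRAJ30 reach a BJAB difference of 1.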

How the data were processed

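Biotin-labelled total RNA of 8 samples was measured on Affymetrix arrays, 1 sample per array. The deposited log2 values came, per the submitters' processing notes, from RMA and Affymetrix Expression Console, with no version stated, and the authors' RMA step was not repeated. Annotation release and genome build are not given in the sources used here. The values ran from 2.36 to 19.4 and covered 138745 features. Of these, 36176 carried exactly 1 gene symbol, 1119 several and 101450 none, and the cluster with the highest mean over the 8 arrays stood for each of 33616 genes. Gene type came from the RefSeq table of GRCh38.p14 for 33036 genes, 24324 by gene number and the others by symbol.

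A linear model with 4 group means was fitted to all 8 arrays in limma 3.58.1 (lmFit and eBayes, R 4.3.3), which shares the spread between lines, with 4 residual and 6.02 prior degrees of freedom. Tests were two-sided and adjusted by the Benjamini-Hochberg method over all genes, with a threshold of 0.05. The procedure was tested on simulated data. Arrays give no read depth, and their number limits the precision: the SE had a median of 0.25, and the 95% confidence interval reached a median of 0.55 to either side.

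Genes were named by a rule: those that passed, the 12 protein-coding and 3 other genes with the smallest p in each direction among genes with non-overlapping groups, all measured ligands and receptors, and up to 4 members of each list by p, or 6 of the NF-kB lists. Protein-coding genes with provisional symbols and immunoglobulin, olfactory receptor and histone genes were not named by it. Further members are named where they complete a complex, family or short count. The 33 lists held 690 measured entries of 733, and the other entries were not used here. The lists and the comparison were chosen with earlier results of these data known. Alternatives covered the genes tested, cluster averaging, normalization between arrays, the variance model, the arrays fitted and a replicate block. Testing every feature, and counting list members on APRIL replicate 1 alone, were added after the data were seen.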

Additional observations from a re-analysis of the deposited data

How the results depend on the processing

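The count of 1 gene changed between APRIL and EDA in HBL-1 stayed at 1, with SEC16B, when array medians were made equal, clusters were averaged, protein-coding genes were tested alone, or cyclic loess, quantile normalization or an intensity trend with robust shrinkage was used. It was 0 with array weights (limma, smallest adjusted p = 0.115), with the HBL-1 arrays alone (0.465), with every deposited feature tested (0.219), and over the fits without 1 HBL-1 array (0 to 0, smallest adjusted p 0.105 to 0.314). It was 0 as well when genes with a mean level under 6 were left out (0.201), which removed SEC16B itself. The count of genes whose response differed between the lines was 0 in all settings run. Same-numbered HBL-1 arrays did not deviate together (r = -0.018 across genes, and 0.059 in BJAB). Each r rests on a single pair of array differences, so it cannot tell whether same-numbered arrays share a culture or batch. With the replicate number as a block, 0 genes passed for either comparison, and SEC16B had a difference of 2.02 (adjusted p = 0.209).

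Small differences changed sign. Over the fits without 1 HBL-1 array, differences ran from -0.39 to 0.079 for BLNK, -0.13 to 0.73 for CD14, -0.11 to 0.84 for CD3G, -0.0019 to 0.20 for CD79A, -0.014 to 1.24 for COL1A2, -0.32 to 0.45 for EDARADD, -0.0095 to 0.64 for EGLN3, -0.054 to 0.54 for FURIN, -0.87 to 0.15 for ITGAM, -0.75 to 0.13 for RIGI, -0.29 to 0.58 for SDC2, -0.44 to 0.21 for TNFRSF13B and -0.093 to 0.70 for TNFRSF17. CD79A was at -0.088 with equal medians, -0.0067 with cyclic loess and -0.014 with quantile normalization, MS4A1 at -0.028 with quantile normalization and BLNK at 0.13 with clusters averaged. The cause was not tested. Of the list medians, 361 values moved by less than the spread between arrays and 35 by more. The NF-kB components list went from 0.32 to 0.11 without APRIL replicate 2 and 0.17 with cyclic loess, and the COPII list from 0.15 to -0.02 and 0.01.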

Other observations

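Among features without a single gene symbol, which entered no comparison above, 3 had the smallest p-values in HBL-1 when every deposited feature was tested with limma. TC1100009292.hg.1 was at 4.81 and 5.22 with EDA and at 7.55 and 7.77 with APRIL, a difference of 2.64 (SE 0.24, adjusted p = 0.219), and its difference in BJAB was 1.25. TC0600008934.hg.1 was at 4.16 and 3.94 with EDA and at 6.28 and 6.25 with APRIL (2.22, SE 0.26, adjusted p = 0.534), with a difference of -0.01 in BJAB. TC0400011088.hg.1 was at 5.68 and 5.34 with EDA and at 7.31 and 7.37 with APRIL (1.83, SE 0.23, adjusted p = 0.575), with -0.25 in BJAB. In all 3 the HBL-1 groups did not overlap, and they were picked out after their values were seen. No gene name is given for them here.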
